A study of Nothobranchius furzeri with 12 samples.

Results

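The tail fins of red-tailed turquoise killifish (Nothobranchius furzeri, an African fish that lives a single season) were compared with the tail fins of females of the same strain, MZCS002. The comparison used 6 of the 12 libraries of the study, 3 from red tails (red 1 to 3) and 3 from MZCS002 females (female 1 to 3), and was made on the 15170 of 20788 table entries whose mean over the 12 libraries was at least 10 normalized reads. Each sample was the coloured part of the tail fin or, in females, the matching region, and total RNA was turned into cDNA with an oligo-dT primer. The other 6 libraries, yellow tails and female tails of the strain GRZ-BELL, entered only the filter and the estimate of the spread. The strain was shared by both groups, and the labels give no treatment, transgene, age or pooling. The labels do not state the sex of the red-tailed fish, so tail colour cannot be told apart from sex in this comparison. The design text calls the 3 samples of a group biological replicates, and nothing else says which animals they came from.

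Fish skin owes its colour to pigment cells that descend from the neural crest. Melanophores make black melanin in organelles called melanosomes. Xanthophores and erythrophores hold yellow to red pteridines, made from GTP, and carotenoids taken from food. Iridophores stack guanine crystals, made through the purine pathway, that reflect light. In zebrafish, xanthophores depend on the receptor Csf1ra and its ligands, and the factor Mitfa sets up the melanophore lineage.

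Red 1 to 3 held 13335150, 15282300 and 16968999 reads, and females 1 to 3 held 16704074, 5495553 and 17053983. Female 2 had the fewest reads and the smallest size factor, 0.318, and 3 reads in it equalled 9.43 normalized units against 2.04 to 2.70 in the other 5 libraries. Its mean correlation with the other females was 0.847, against 0.895 to 0.956 for the other 5 libraries with their own groups. On the first principal component of the 6 libraries (48.8% of the variance) female 2 lay at 136 and the other 5 between -57.6 and -7.06. On the second (27.8%) the red tails lay at 31.4 to 43.9, females 1 and 3 at -55.1 and -77.7, and female 2 at 22.7, next to the red tails. Counts of calls by list, and the changes of most called genes described, are therefore given with and without female 2. The fin identity of the samples was visible in all 6 libraries: the epidermal keratin gene krt5 held 467669 to 1586840 normalized reads, and the actinodin gene and1, of the fin's collagen-like rays, 408 to 5582. Haemoglobin and pan-leukocyte marker genes of the list of other cell types (hbaa1, hbba1, ptprc) matched no entry of the table.

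Red tails held more RNA of called genes of all 3 pigment cell classes, of some of their regulators and of 5 genes of the V-type proton pump, and less RNA of 24 ribosomal protein genes, 7 translation factor genes and the caveolin gene cav1. The proton pump, ribosomal and translation calls depended on single libraries, as most calls over all genes did. With red 2 left out, limma called 0 proton pump, 1 ribosomal and 0 translation genes. Over all 15170 genes it then called 126 higher and 45 lower. On the 6 libraries alone it called 0 in each of these lists, and 107 higher and 5 lower over all genes. On log2(value + 1), with a limma fit over all genes and a Benjamini-Hochberg adjusted p under 0.05, 687 of 15170 genes were called (4.53%), 411 higher in red tails (2.71%) and 276 lower (1.82%). Without female 2 there were 1166 calls (7.69%), 686 higher (4.52%) and 480 lower (3.16%). The calls common to both fits numbered 570 (356 higher and 214 lower), while 117 were made only with female 2 and 596 only without it. In bulk tissue, fewer cells of a type and less RNA per cell cannot be told apart. All adjusted p values below are from this limma fit unless another tool is named. The gene lists below were chosen with earlier results of these data known. Their shares of calls, set beside those of all genes, may reflect that choice and are no test. Fold changes on this scale can understate or overstate those of genes with few reads in a group. Among genes described below, the limma changes of apoda.1, asmt, pax3a, uraha, myocd and others were smaller in size than those of DESeq2 and edgeR. Those of kcnk3a and pnp4a, which had no read in female 2, were larger than in both tools.

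Changes upward reached further than changes downward. Among the called genes, 174 rose and 58 fell by more than 2 on the log2 scale, 64 rose and 4 fell by more than 4, and 22 rose and 0 fell by more than 6. Of those 22, 13 carried a gene symbol. The called higher genes made up 5.67%, 6.35% and 3.62% of all normalized reads in the red tails and 1.13%, 0.748% and 1.12% among females. The called lower genes made up 10.7%, 13.0% and 11.2% in the females but 3.04%, 3.92% and 5.61% in the red tails. In every one of the 687 called genes the 3 red values lay apart from the 3 female ones, as they did in 23.5% of all tested genes. Scaling the libraries to equal totals moved the median gene from 0.01 to 0.25 and the calls to 646 higher and 134 lower. Leaving out red 2 gave 171 calls, leaving out red 1 gave 243, leaving out female 3 gave 370, and 150 genes (123 higher and 27 lower) were called whichever of the 6 libraries was left out. A fit on the 6 libraries alone called 112 genes (0.738%), 107 higher (0.705%) and 5 lower (0.033%). On reads recovered from the table, edgeR called 4.59% of genes (2.41% higher and 2.18% lower) and DESeq2 11.6% (5.82% higher and 5.81% lower), and limma with a weight per library called 34.0% (17.5% higher and 16.5% lower).

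**Figure D1:**
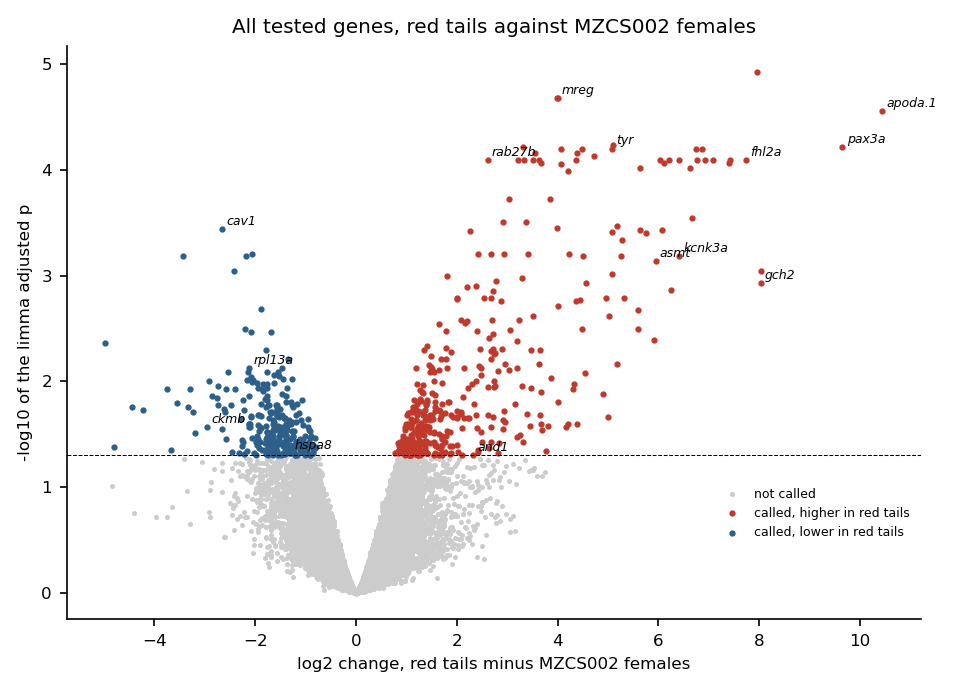
Each point is 1 of 15170 tested genes, with the log2 change (red tails minus MZCS002 females) on the horizontal axis and -log10 of the limma adjusted p on the vertical axis; the dashed line marks an adjusted p of 0.05. The 411 called increases reach beyond 10, at apoda.1, while few of the 276 called decreases pass -4.

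**Figure D2:**
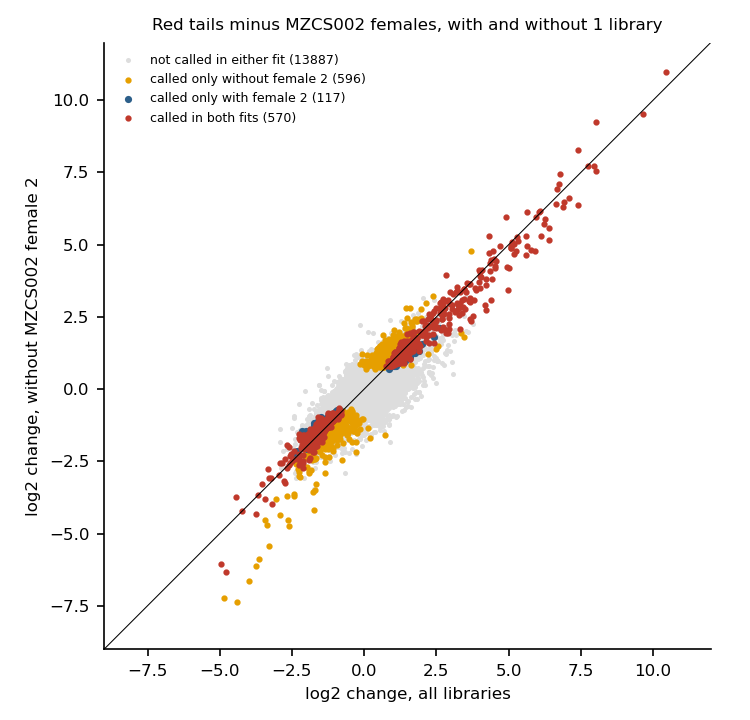
Log2 change of each tested gene with all libraries (horizontal) and without MZCS002 female 2 (vertical); the line marks equal values. The 570 genes called in both fits lie along the line, and the 596 called only without female 2 lie mostly at changes nearer 0 with it.

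Part of the xanthophore genes rose. Of 16 tested genes of pteridine synthesis and the xanthophore lineage, 8 were called higher (50% against 2.71% of all genes) and none lower. Without female 2, 9 were called higher and none lower, where 4.52% of all genes were called higher. The median log2 change was 2.06 (1.85 without female 2) against 0.01 over all genes. The gene gch2, whose product GTP cyclohydrolase takes the first step from GTP to pteridines, stood at 42967, 88797 and 32889 normalized reads in the red tails and at 182, 97.4 and 388 in the females. Every red value was far above every female one, and the log2 change was 8.03 ± 1.08 (SE; adjusted p = 0.0012) with female 2 and 7.55 ± 1.17 without. The xanthine dehydrogenase gene xdh, which acts later in the same pathway, was at 926, 944 and 599 against 101, 28.3 and 185. Its change of 3.30 ± 0.61 (adjusted p = 0.011) became 2.55 ± 0.49 without female 2, its lowest library, and its call was lost without red 1 or red 2 (highest adjusted p = 0.062). Intermediate steps were not called: pts, which makes the pteridine precursor, was at 705.1, 1262 and 866 against 487, 497 and 352 (adjusted p = 0.055, and 0.039 without female 2). The aldehyde oxidase gene aox6 had an adjusted p of 0.055, and the sepiapterin reductase gene spra one of 0.43. The second GTP cyclohydrolase gene, gch1, read 115, 235 and 76.9 in red tails and 130.3, 81.7 and 219 in females, overlapping groups at a change of -0.06 ± 0.48.

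Of the xanthophore signal, the receptor gene csf1ra and the ligand genes il34 and csf1b were higher together. The receptor gene csf1ra was at 3193, 2969 and 2373 in red tails and at 186, 198 and 403 in females, while its copy csf1rb was at 224, 252 and 253 against 223, 537 and 326. The first was called (3.52 ± 0.34, adjusted p = 8.1e-05) and the second was not (-0.48 ± 0.30, adjusted p = 0.37). The ligand gene il34 was at 823, 921 and 734 against 44.9, 25.1 and 73.4, a change of 4.20 ± 0.43 (adjusted p = 1.0e-04). Another ligand gene, csf1b, was at 593, 1047 and 685 against 144, 157 and 247, a change of 2.08 ± 0.31 (adjusted p = 0.0026). These 3 calls held with each library left out in turn. The lineage factor gene pax7a was at 585, 539.7 and 493 against 81.8, 132 and 157. Its relative pax3a was at 1028, 956 and 889.7 against 0, 0 and 0.68, a single read among the 3 females. The transporter gene slc22a7a, needed in zebrafish xanthophores, was at 87.8, 117 and 107 against 10.8, 0 and 15.6, and its change fell from 4.17 ± 0.93 to 2.90 ± 0.63 without female 2, in which it had no read. Its call was lost without red 1, red 2 or red 3 (highest adjusted p = 0.11). Without female 2 the changes were 3.36 ± 0.36 for csf1ra, 3.82 ± 0.40 for il34, 1.99 ± 0.33 for csf1b, 2.24 ± 0.35 for pax7a and 9.53 ± 0.85 for pax3a.

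Another gene tied to the same cofactor chemistry was among the largest increases. The gene agmo encodes alkylglycerol monooxygenase, an enzyme that needs the pteridine tetrahydrobiopterin, and stood at 18189.7, 21737 and 11859.8 in red tails against 339, 59.7 and 369 in females. The change was 6.41 ± 0.60 (adjusted p = 8.1e-05), and 5.56 ± 0.40 without female 2. The gene qdpra, of the enzyme that recycles this cofactor, was at 3949, 7478 and 4149.8 against 5734, 4155 and 7702, and the groups overlapped.

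Carotenoid genes were called in both directions. Of 22 tested genes of carotenoid and retinoid handling, 1 was called higher and 2 lower (13.6% in either direction against 4.53% of all genes). Without female 2, 1 was called higher and 3 lower, where 7.69% of all genes were called. The median change was 0.11, or -0.10 without female 2. The lipid droplet gene plin6, whose product gathers carotenoid droplets in fish pigment cells, was at 956, 1095 and 942 against 119, 31.4 and 124 (3.67 ± 0.69, adjusted p = 0.013). The lipoprotein lipase gene lpla was lower, at 46.5, 41 and 45.2 against 192, 135 and 169 (-1.87 ± 0.35, adjusted p = 0.012). Both calls were lost without red 2 (adjusted p = 0.064). The retinoid receptor gene rxrba was at 90.4, 153 and 161 against 217, 475 and 335 (-1.31 ± 0.31, adjusted p = 0.035), and it was not called without red 1, red 2 or female 3 (highest adjusted p = 0.13). The carotenoid-splitting enzyme gene bco1 was at 148, 172 and 296 against 147, 62.9 and 306. Its groups overlapped, and its estimate of 0.47 ± 0.49 turned to -0.11 ± 0.41 without female 2. Without female 2 the changes were 3.03 ± 0.66 for plin6, -2.01 ± 0.37 for lpla and -1.04 ± 0.29 for rxrba, each still called.

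Melanophore genes differed from one another. Of 13 tested genes of melanin synthesis and melanosome cargo, 7 were called higher (53.8% against 2.71% of all genes) and none lower. The counts were the same without female 2, where 4.52% of all genes were called higher. The median change was 3.18, or 2.48 without female 2. Summed over the list, the red tails held 22668, 27985 and 14540 normalized reads and the females 3764, 1449 and 3237. A large part of these sums was 1 gene, tspan36. It held 12134, 14901 and 7163 in red tails and 2017, 349 and 1253 in females. Tyrosinase, the rate-limiting enzyme of melanin synthesis, had a gene level of 2622, 3385 and 1647 against 62, 59.7 and 99.2 (tyr, 5.07 ± 0.44, adjusted p = 6.3e-05). The related enzyme gene tyrp1b was at 921, 1516 and 645 against 255, 223 and 183 (2.14 ± 0.37, adjusted p = 0.0075). The third enzyme gene of the family, dct, read 207, 199 and 228 against 156, 157 and 205. Its groups overlapped (0.30 ± 0.23, adjusted p = 0.48; 95% interval -0.21 to 0.80), so that the 3 enzyme genes of the pathway ran from a change near 0 to one above 5. The fibril gene pmela was at 1983, 1776 and 1015 against 799, 311 and 857. All red values were above the female ones, but the call was missed (1.35 ± 0.40, adjusted p = 0.072; 0.89 ± 0.32, adjusted p = 0.11, without female 2). The melanosome genes mlana (3.33 ± 0.31) and tspan10 (4.48 ± 0.38) and the melanocyte channel gene trpm1b (3.32 ± 0.28) kept their calls with each library left out, whereas the pump gene oca2 was at 14.6, 19.3 and 12.8 against 29.7, 6.29 and 36.7 and overlapped. The largest called change of this list was that of gpnmb, found in melanosomes, at 617, 897 and 587 against 9.88, 9.43 and 1.36 (6.74 ± 0.58, adjusted p = 6.3e-05), which held with each library left out. With female 2 left out, the changes were 7.09 ± 0.61 for gpnmb, 4.94 ± 0.48 for tyr, 2.16 ± 0.41 for tyrp1b, 2.99 ± 0.26 for mlana, 4.79 ± 0.36 for tspan10 and 3.37 ± 0.30 for trpm1b.

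Genes that build and move melanosomes formed a second, smaller group. Of 20 tested, 5 were called higher (25% against 2.71% of all genes) and none lower. The counts were the same without female 2, where 4.52% of all genes were called higher. The median change was 0.61 in both fits, and 12 genes had red values above all female ones (12.7% of all tested genes did). Melanoregulin, which helps to move melanosomes and pass them on, had the smallest p of the list: mreg was at 1352, 2291 and 2142 against 125, 78.6 and 164 (3.99 ± 0.29, adjusted p = 2.1e-05). The small GTPase gene rab27b was at 1609, 1727 and 1603 against 234, 277 and 299.7 (2.61 ± 0.25, adjusted p = 8.1e-05). Its relative rab27a was at 1322, 1152 and 913 against 710.7, 1194 and 823 and overlapped. The GTPase genes rab38b and rab32a, which steer cargo to melanosomes, changed by 4.51 ± 0.56 and 1.64 ± 0.25, while rab38a was at 31, 31.3 and 28.7 against 106, 9.43 and 3.4. The organelle complex gene bloc1s2 was at 413, 418 and 378 against 246, 251 and 171 (0.87 ± 0.22, adjusted p = 0.047), a call lost without female 3 or any red library (highest adjusted p = 0.17). In both GTPase pairs 1 copy was called and the other was not, and the difference between copies was not tested. Without female 2 the changes were 3.70 ± 0.25 for mreg, 2.63 ± 0.26 for rab27b, 4.27 ± 0.58 for rab38b, 1.55 ± 0.25 for rab32a and 0.97 ± 0.22 for bloc1s2.

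**Figure D3:**
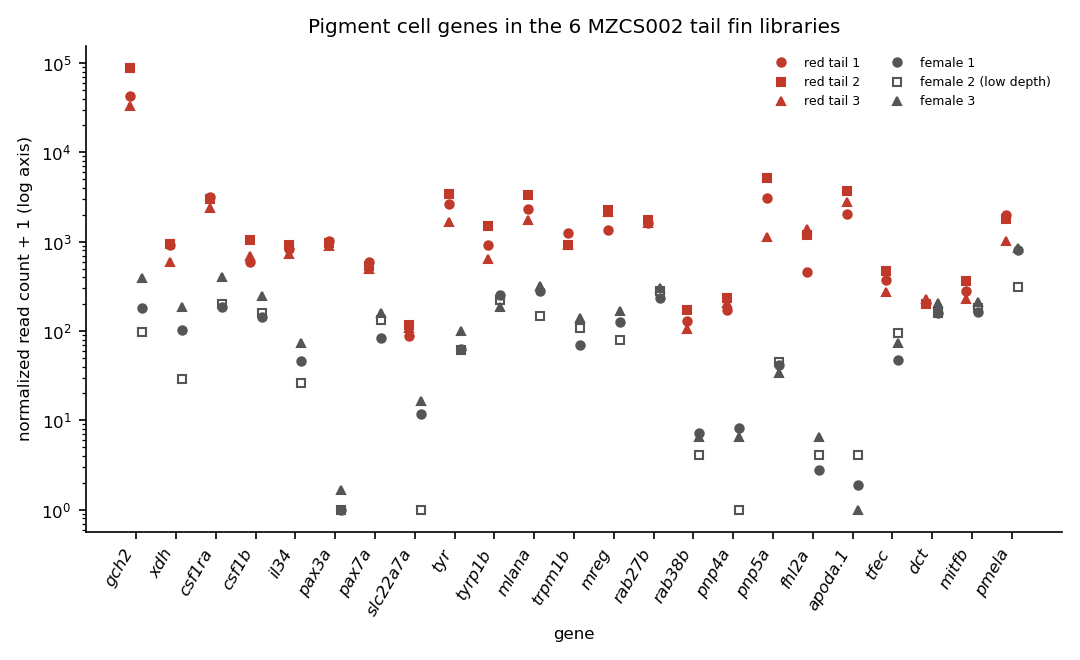
Normalized read count + 1 on a log axis for pigment cell genes, with 1 point per library: red symbols are the 3 red tails, grey ones the 3 MZCS002 females, and open squares female 2. The genes from gch2 to tfec were picked from the called increases, and in every called gene the groups lie apart, so their separation here follows from that choice. Among the uncalled genes at the right, dct overlaps. Other uncalled genes that overlap, such as gch1 and csf1rb, are not drawn.

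Some iridophore genes rose as well. Of 15 tested, 6 were called higher (40% against 2.71% of all genes) and none lower. Without female 2, 7 were called higher and none lower, where 4.52% of all genes were called higher. The median change was 1.40, or 0.91 without female 2. The list's purine nucleoside phosphorylase genes differed: pnp5a was at 3086, 5105 and 1138 against 40.4, 44 and 32.6 (6.04 ± 0.58, adjusted p = 8.1e-05). Pnp4a, the usual iridophore marker, was at 173, 232 and 206 against 7.19, 0 and 5.44 (5.76 ± 0.68; 4.81 ± 0.44 without female 2). The copies pnp5b (1309.5, 833 and 1109 against 1316, 575 and 1488) and pnp6 (12.9, 11.2 and 9.05 against 28.8, 9.43 and 23.8) overlapped between groups. The gene fhl2a was at 452, 1183 and 1382 against 1.8, 3.14 and 5.44 (7.75 ± 0.76, adjusted p = 8.2e-05). Apolipoprotein D genes, whose products carry small lipids, included the largest increase with a symbol: apoda.1 was at 2058, 3657 and 2809 against 0.899, 3.14 and 0, or 10670 reads against 2. Its relative apodb was at 84.4, 149 and 127 against 9.88, 15.7 and 10.9 (3.19 ± 0.50, adjusted p = 0.0041). The factor gene tfec, active in the iridophore lineage, was at 374, 469 and 274 against 46.7, 94.3 and 72.7 (2.39 ± 0.32, adjusted p = 0.0013). The receptor gene ltk, which iridophores need in zebrafish, was not called, at 51.7, 57 and 45.2 against 98.8, 28.3 and 76.1. Leaving out female 2 gave 6.13 ± 0.65 for pnp5a, 7.74 ± 0.84 for fhl2a, 10.97 ± 0.81 for apoda.1, 3.37 ± 0.54 for apodb and 2.62 ± 0.32 for tfec.

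Purine synthesis genes had mostly positive estimates. Of 28 tested genes of purine synthesis and its folate supply, 25 had a positive estimate (7725 of all 15170 genes did), 2 were called higher and 1 lower (10.7% in either direction against 4.53% of all genes), and the median change was 0.70. Without female 2, 5 were called higher and 2 lower, where 7.69% of all genes were called, and the median was 0.64. The gene atic, of the last steps to the purine ring, was at 2316, 3256 and 2612 against 984, 1342 and 843 (1.38 ± 0.28, adjusted p = 0.017). The salvage gene aprt was at 524, 922 and 667 against 258, 380.3 and 122 (1.58 ± 0.39, adjusted p = 0.041). Without female 3 or red 2 the calls of atic and aprt were lost, and that of aprt also without red 1, red 3 or female 1, the highest adjusted p being 0.098 for atic and 0.18 for aprt. The mitochondrial folate gene mthfd1l was at 387, 446 and 323 against 89.9, 286 and 53.7 and was called only without female 2 (adjusted p = 0.071 with it and 0.0037 without). Outside this list, prtfdc1a, a relative of the salvage enzyme for guanine, was at 353, 577 and 769 against 0, 9.43 and 2.04 (7.41 ± 0.70). The gene uraha, of uric acid breakdown, was at 259, 2069.5 and 146 against 4.49, 6.29 and 5.44 (6.08 ± 0.71, adjusted p = 3.8e-04), with red 2 far above the other red tails; both were called with any library left out. Leaving out female 2 gave 1.57 ± 0.27 for atic, 1.95 ± 0.36 for aprt, 8.27 ± 0.55 for prtfdc1a and 6.18 ± 0.79 for uraha.

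Among 28 tested regulators of the neural crest and pigment progenitors, 7 were called higher (25% against 2.71% of all genes) and none lower. Without female 2, 9 were called higher and none lower, where 4.52% of all genes were called higher. The median change was 0.44, or 0.56 without female 2. Besides pax3a, pax7a and tfec the 7 called genes were mitfa, foxd3, id2a and id3. The melanophore factor gene mitfa was at 284, 394 and 103 against 37.7, 25.1 and 65.2 (2.48 ± 0.57, adjusted p = 0.030), and its copy mitfb at 283, 358 and 225 against 162, 182 and 209 (0.63 ± 0.25, adjusted p = 0.17). The call of mitfa was lost without female 1, red 1 or red 2 (highest adjusted p = 0.15). The early crest factor gene foxd3 was at 170.5, 153 and 251 against 113, 22 and 48.3 (1.89 ± 0.49, adjusted p = 0.048). It lost its call without female 2 (1.33 ± 0.41, adjusted p = 0.064), and also without female 3 or any red library (highest adjusted p = 0.13). Id proteins hold back differentiation factors by binding their partners. The gene id3 was at 8570.1, 4202 and 2046 against 1133, 877 and 1168 (2.00 ± 0.43, adjusted p = 0.022), and id2a at 2024, 2682 and 2669.8 against 594, 786 and 1202 (1.56 ± 0.32, adjusted p = 0.018). Without red 2 neither was called, nor was id3 without red 1 (highest adjusted p = 0.097 for id3 and 0.094 for id2a). Leaving out female 2 gave 2.16 ± 0.60 for mitfa, 1.86 ± 0.46 for id3 and 1.53 ± 0.34 for id2a.

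Membrane genes of skin patterning and of zinc transport held some of the clearest differences. Of 14 tested channel, junction and adhesion genes known from fish skin pattern or fin size, 3 were called higher (21.4% against 2.71% of all genes) and none lower. The counts were the same without female 2, where 4.52% of all genes were called higher. The potassium channel gene kcnk3a was at 450.3, 642 and 404 against 12.6, 0 and 12.9 (6.42 ± 0.80, adjusted p = 6.5e-04; 5.16 ± 0.39 without female 2). The adhesion gene cdh6 was at 697, 932 and 812 against 141, 53.4 and 234 (2.73 ± 0.42, adjusted p = 0.0036), and the tetraspanin gene tspan36 at 12134, 14901 and 7163 against 2017, 349 and 1253 (3.50 ± 0.52, adjusted p = 0.0024). On the 6 libraries alone limma called kcnk3a (adjusted p = 0.023) but not cdh6 (adjusted p = 0.061) or tspan36 (adjusted p = 0.054). The call of tspan36 is also counted in the list of melanin synthesis and melanosome cargo. The gap junction gene gja1b read 39.6, 91.5 and 68.6 against 92.5, 15.7 and 86.3 and overlapped. Of 13 tested zinc transporter genes, 2 were called higher (15.4% against 2.71% of all genes) and none lower. Without female 2, 3 were called higher and none lower, where 4.52% of all genes were called higher. The exporter gene slc30a8 was at 958, 1923 and 675 against 19.8, 6.29 and 19, and the importer gene slc39a6 at 1384, 2471 and 1755 against 119, 179 and 171. Their changes of 6.22 ± 0.60 and 3.56 ± 0.32 (adjusted p = 8.1e-05 and 6.9e-05) held with every library left out. Leaving out female 2 gave 2.15 ± 0.29 for cdh6, 2.78 ± 0.35 for tspan36, 5.72 ± 0.58 for slc30a8 and 3.67 ± 0.34 for slc39a6; female 2 was the lowest library for the first 3.

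The V-type proton pump acidifies lysosomes and melanosomes, and its genes leaned one way. All 17 tested subunit and accessory genes had a positive estimate (7725 of all 15170 genes did), and 9 had red values above every female value (12.7% of all genes did). Of the 17, 5 were called higher and none lower (29.4% against 2.71% of all genes). Without female 2, 7 were called higher, where 4.52% of all genes were. The median change was 0.61, or 0.77 without female 2. The accessory gene atp6ap2 was at 1077, 1156 and 766 against 479, 289 and 306 (1.50 ± 0.26, adjusted p = 0.0072). The membrane part was represented by atp6v0e1, at 1703, 1636 and 1316 against 809, 710.3 and 655, and by atp6v0d1 (1.11 ± 0.28). The catalytic part was represented by atp6v1h, at 1549, 1784 and 1329 against 766, 823 and 608, and by atp6v1c1a (1.28 ± 0.29). Among females, female 2 lay nearest the red tails. The list's median, each gene relative to its own mean over the 6 libraries, was 0.23, 0.48 and 0.30 in red 1 to 3. In females 1 to 3 it was -0.32, -0.23 and -0.64. The list's summed level was 15359 to 17019 in red tails and 9974, 13914 and 8437 in females. These calls depended on red 2, since without it none of the 17 was called (6 at an unadjusted p under 0.05). Over all 15170 genes 126 were then called higher. The adjusted p without red 2 was 0.051 for atp6ap2 and at most 0.16 for the others. The 4 others were also lost without red 1 or female 3, and atp6v0d1 without female 2. In the fit on the 6 libraries alone limma called 0 (8 at an unadjusted p under 0.05), and over all libraries edgeR called 4 and DESeq2 6. Leaving out female 2 gave 1.36 ± 0.26 for atp6ap2, 1.08 ± 0.25 for atp6v0e1, 0.94 ± 0.29 for atp6v0d1, 1.18 ± 0.25 for atp6v1h and 1.13 ± 0.29 for atp6v1c1a.

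Other organelle genes gave fewer calls. Of 43 tested lysosome and endosome genes, 2 were called higher (4.65% in either direction, near the 4.53% of all genes): the protease gene ctsd, at 4389, 4090.0 and 2353 against 1865, 959 and 1486, and the chloride transporter partner gene ostm1, at 401, 388 and 375 against 197, 78.6 and 213. Without female 2, 4 were called higher and 1 lower, where 7.69% of all genes were called. Both calls were lost without red 1 or red 2, ctsd also without female 2 (adjusted p = 0.055) or female 3, and ostm1 without red 3 (highest adjusted p 0.16 and 0.14). Of 74 genes of oxidative phosphorylation, 3 were called higher and none lower (4.05%). Without female 2, 5 were called higher, where 4.52% of all genes were. The median was 0.24, or 0.58 without female 2. The cytochrome oxidase gene cox6a1 was at 5259.7, 5316 and 3087 against 1715, 1766 and 1159 (1.54 ± 0.28, adjusted p = 0.0099), a call lost without red 2 (adjusted p = 0.064). The other called genes, uqcrc1 of complex III and ndufs7 of complex I, changed by 1.23 ± 0.28 and 0.98 ± 0.24, and were not called without red 1, red 2 or female 3 (highest adjusted p = 0.15 for each). With female 2 left out, the changes were 1.06 ± 0.31 for ctsd, 0.92 ± 0.22 for ostm1, 1.65 ± 0.29 for cox6a1, 1.01 ± 0.27 for uqcrc1 and 0.90 ± 0.24 for ndufs7.

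Several of the largest increases lay outside pigment lists. The gene tmem130, of a membrane protein, was at 118865, 152140.0 and 47647 against 984, 361 and 1489 (6.88 ± 0.61). The gene asmt encodes the enzyme that finishes melatonin synthesis. It was at 60.3, 51.4 and 72.4 in red tails with no read in any female, which against 3 reads per library is at least 13.0-fold higher (adjusted p = 7.3e-04). The phosphatase gene dusp2 was at 341, 349 and 276 against 18, 15.7 and 4.76 (4.72 ± 0.43). The calls of these 3 genes held with every library left out. Among the called increases with the highest normalized reads, not corrected for length, the light chain gene myl12.1 was at 55688, 43528 and 24167 against 19369.6, 14146 and 11933 (1.39 ± 0.36, adjusted p = 0.048), and the arginine methyltransferase gene prmt1 at 7763, 9116 and 6731 against 3310.2, 2794 and 2241 (1.51 ± 0.26, adjusted p = 0.0076). The call of myl12.1 was lost without red 1, red 2, female 2 or female 3 (highest adjusted p = 0.18), and that of prmt1 without red 2 (adjusted p = 0.053). With female 2 left out, the changes were 6.30 ± 0.57 for tmem130, 4.94 ± 0.45 for dusp2, 1.35 ± 0.40 for myl12.1 and 1.52 ± 0.28 for prmt1.

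A few steroid genes were called, in both directions. Of 26 tested genes of sex steroids and sex determination, 2 were called higher and 1 lower (3 and 1 without female 2). With all libraries that was 11.5% in either direction, against 4.53% of all genes. Without female 2, limma called 7.69% of all genes. The gene hsd3b1, of a hydroxysteroid dehydrogenase that makes progesterone and androgen precursors, was at 863, 1393 and 679 against 27.9, 31.4 and 63.9 (4.57 ± 0.61, adjusted p = 0.0012), and was called with any library left out. The androgen receptor gene ar was at 887, 1142 and 872 against 294, 591 and 428 (1.19 ± 0.29, adjusted p = 0.041; 1.43 ± 0.28, adjusted p = 0.012, without female 2). The coactivator gene ncoa1 was lower, at 37.9, 44.2 and 37.7 against 73.7, 192 and 156 (-1.68 ± 0.39, adjusted p = 0.031). Calls of ar and ncoa1 were lost without female 3 or any red library, and that of ar also without female 1 (highest adjusted p = 0.17 for ar and 0.10 for ncoa1). With female 2 left out, the changes were 4.43 ± 0.68 for hsd3b1 and -1.41 ± 0.39 for ncoa1.

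**Figure D4:**
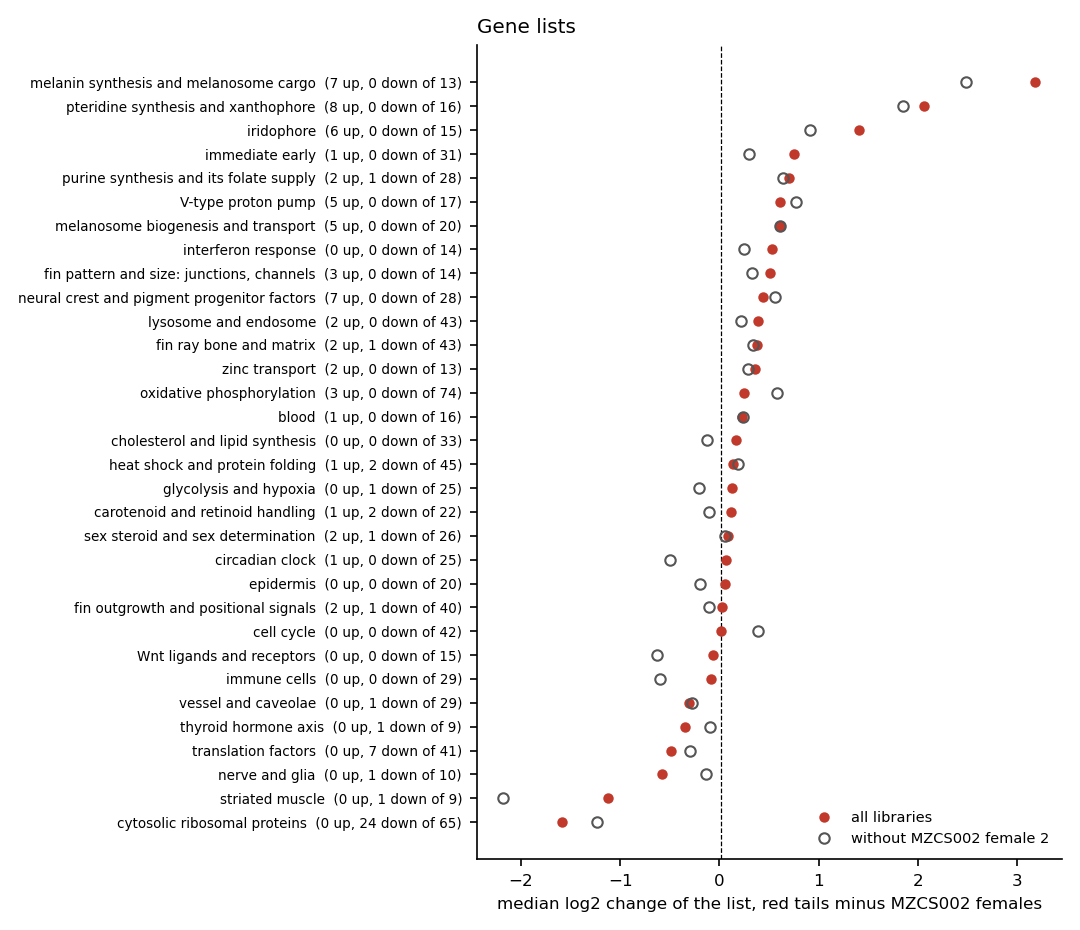
Median log2 change (red tails minus MZCS002 females) of each of the 32 gene lists, with all libraries (filled) and without MZCS002 female 2 (open); numbers beside a name are its called higher and lower genes and its tested genes. The dashed line is the median of all tested genes, 0.01. The melanin, pteridine and iridophore lists lie farthest to the right in both fits. Farthest to the left are the ribosomal proteins with all libraries and striated muscle without female 2, and the muscle, Wnt, immune and clock lists move left without female 2.

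Most ribosomal protein genes had a negative estimate, but only part were called lower, in calls that depended on red 1 and red 2. Of 65 tested cytosolic ribosomal protein genes, 24 were called lower (36.9% against 1.82% of all genes) and none higher. Without female 2, 16 were called lower and 1 higher, where 3.16% of all genes were called lower and 4.52% higher. In 51 of the 65, red values lay below every female value (as in 10.8% of all genes), and the median change was -1.59, or -1.23 without female 2. A positive estimate was found in 2 of the 65 (7725 of all 15170 genes). A limma unadjusted p under 0.05 was found in 57 (3330 of all genes). The gene rpl13a was at 3289.8, 5364 and 9241 against 20913, 32633 and 19551 (-2.12 ± 0.37, adjusted p = 0.0075; -1.89 ± 0.37 without female 2). The genes rpl14, at 1534, 2351 and 3971 against 8455, 41452 and 10228, and rpl35a, at 2400.4, 3169 and 5322 against 14070.1, 48014 and 13644, fell by 2.66 ± 0.60 and 2.61 ± 0.53 on the log2 scale. In both, female 2 was the highest library, and without it the values were -1.94 ± 0.49 and -2.01 ± 0.45. Female 2 was also the highest over the whole list, whose median, after taking each gene relative to its mean over the 6 libraries (gene-centred), was -1.40, -0.81 and -0.14 in red 1 to 3 and 0.62, 1.48 and 0.27 in females 1 to 3, so that the spread within each group was wide and red 3 was close to female 3. The median was -1.03 under quantile normalization. Without red 2 only 1 gene of the list was called lower and without red 1 only 2, where 45 and 80 of all genes were. The calls of rpl14 and rpl35a were lost without red 1 or red 2 (highest adjusted p = 0.11 and 0.088). On the 6 libraries alone limma called 0 (52 at an unadjusted p under 0.05), whereas over all libraries edgeR called 27 lower and DESeq2 53. Ribosomal proteins have near-identical pseudogenes and copies in many genomes, so reads may have been split between entries, which was not tested.

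Of 41 tested translation factors, 7 were called lower (17.1% against 1.82% of all genes) and none higher. Without female 2, 6 were called lower and none higher, where 3.16% of all genes were called lower. The median was -0.49, or -0.30 without female 2. The elongation factor gene eef1b2 was at 4017, 6105 and 10839 against 26134, 36674 and 21371 (-2.09 ± 0.37, adjusted p = 0.0092). The ribosome scaffold gene rack1 was at 12765, 16334 and 24071 against 50236, 64564 and 41009.9 (-1.58 ± 0.33, adjusted p = 0.021). The others were tpt1, btf3, eif3m, eif3k and eef1g, between -1.28 and -1.64. Without red 1 only 1 of the 41 was called, and without red 2 none (12 at an unadjusted p under 0.05). Of all genes, 243 and 171 were called in these fits. On the 6 libraries alone limma also called 0 (12 at an unadjusted p under 0.05). Over all libraries edgeR called 7 lower and none higher, and DESeq2 9 lower and 1 higher. The call of rack1 was also lost without red 1 (highest adjusted p = 0.11), and that of eef1g without red 1 or female 2 (highest adjusted p = 0.17). The chaperone genes hspa8 and hsp90ab1 were at 42146, 46252 and 54090.5 against 137457, 108951 and 107454, and at 18445, 22022 and 32642 against 59203, 171828 and 73052. Their changes were -1.31 ± 0.34 (adjusted p = 0.048) and -1.94 ± 0.46 (adjusted p = 0.037), and without female 2 the second was not called (-1.47 ± 0.44, adjusted p = 0.058). Both were also lost without red 1, red 2 or female 3, and hspa8 without female 1 (highest adjusted p = 0.18 and 0.15). Of 45 chaperone and folding genes in all, 1 was called higher, dnajb5, and only these 2 lower (3 higher and 1 lower without female 2). With all libraries that was 6.67% in either direction, against 4.53% of all genes. Without female 2, limma called 7.69% of all genes. With female 2 left out, the changes were -1.88 ± 0.39 for eef1b2, -1.41 ± 0.35 for rack1 and -1.36 ± 0.39 for hspa8.

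**Figure D5:**
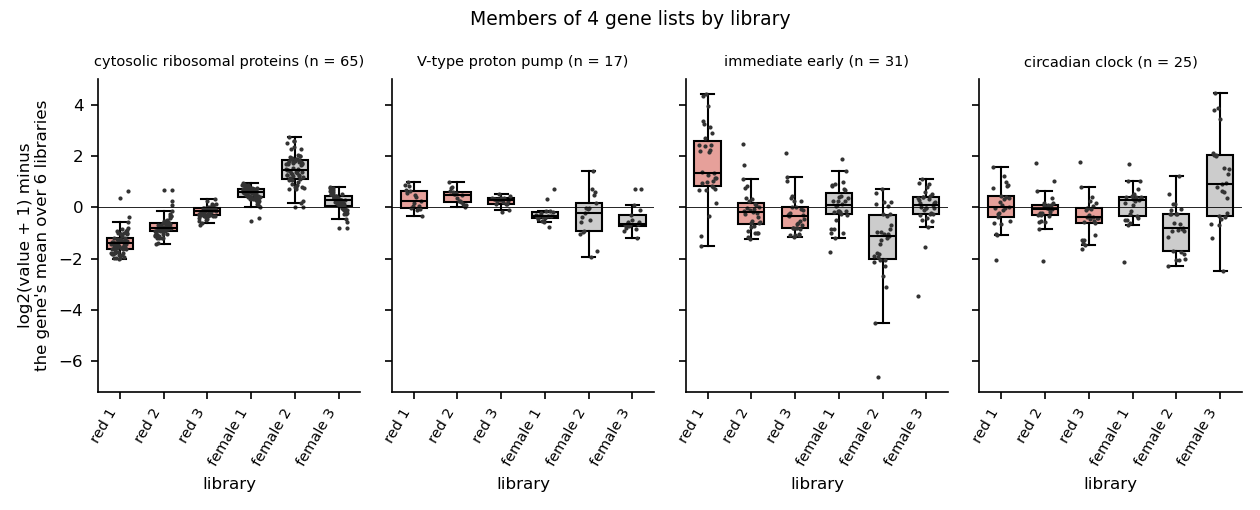
Each point is 1 gene of a list in 1 library, as log2(value + 1) minus the gene's mean over the 6 libraries; boxes show the median and quartiles and whiskers the farthest points within 1.5 box lengths. Ribosomal protein genes are lowest in red 1 and highest in female 2, proton pump genes are higher in the red tails, immediate early genes are high in red 1 and low in female 2, and clock genes are high in female 3.

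Among the other decreases, cav1, which builds caveolae, small pits of the cell membrane, was at 210.1, 107 and 183 against 874, 915 and 1317 (-2.66 ± 0.31, adjusted p = 3.6e-04), and it was called with every library left out. It was the 1 called gene of 29 vessel and caveola genes, with or without female 2 (3.45% in either direction against 4.53% of all genes, or 7.69% without female 2). The endothelial genes kdrl (-0.60 ± 0.36) and cdh5 (-1.06 ± 0.45) were not called. The mitophagy gene bnip3la was at 19.8, 44.2 and 30.9 against 89, 101 and 148 (-1.84 ± 0.34, adjusted p = 0.011). Its call held with every library left out, but not on the 6 libraries alone (adjusted p = 0.14). With or without female 2, bnip3la was the 1 called gene of 25 in glycolysis and hypoxia. That was 4% in either direction, against 4.53% of all genes, or 7.69% without female 2. The growth factor gene gdf11 was at 24.1, 27.3 and 28.7 against 129, 75.4 and 227 (-2.25 ± 0.44, adjusted p = 0.015), a call lost without red 1, red 2 or female 3 (highest adjusted p = 0.064). The chromatin remodelling gene arid1b was at 11.2, 11.2 and 44.5 against 92.5, 97.4 and 109 (-2.41 ± 0.45, adjusted p = 0.012), lost without red 1 or red 2 (highest adjusted p = 0.068). The smooth and cardiac muscle coactivator gene myocd had the lowest estimate among called genes with a symbol and groups apart, -3.34 ± 0.67, at 1.72, 2.41 and 2.26 against 9.88, 69.1 and 40.1. It rested on 8 red and 92 female reads, and its call was lost without red 1, red 2 or female 3 (highest adjusted p = 0.064). The chemokine gene cxcl12b was at 0.861, 3.21 and 5.28 against 12.6, 22 and 18.4 and was called only while all of red 1, red 2 and the 3 females were in the fit (adjusted p = 0.048, at most 0.15 otherwise). Without female 2 the values were -2.74 ± 0.33 for cav1, -1.90 ± 0.36 for bnip3la, -2.64 ± 0.42 for gdf11, -2.42 ± 0.50 for arid1b, -2.76 ± 0.66 for myocd and -2.15 ± 0.64 for cxcl12b.

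Few fin ray and outgrowth genes were called. Of 43 tested genes of fin ray bone and matrix, 2 were called higher and 1 lower (6.98% in either direction against 4.53% of all genes), at a median of 0.37. Without female 2, 6 were called higher and 1 lower, where 7.69% of all genes were called, at a median of 0.34. The actinodin genes, of the horny rays at the fin edge, were the 2 called higher with all libraries: and2 was at 821, 1079 and 856 against 277, 157 and 65.9 (2.67 ± 0.64, adjusted p = 0.037), and and1 at 4289, 4601 and 5582 against 1607, 1339 and 408 (2.32 ± 0.61, adjusted p = 0.04998). Both calls were lost without female 3, their lowest library, or any red library (highest adjusted p = 0.15 and 0.16), and edgeR did not call and1 (adjusted p = 0.061). The matrix gene vcanb was lower, at 56.8, 80.3 and 109 against 297, 217 and 232 (-1.62 ± 0.36, adjusted p = 0.027; lost without red 1, red 2, female 1 or female 3, highest adjusted p = 0.11). Bone collagen genes were not called: col1a1a read 80709 to 154630 in red tails and 59366 to 96421 in females. Of 40 outgrowth and positional genes, 2 were called higher and 1 lower (7.5% in either direction), at a median of 0.02. Without female 2, 2 were called higher and 3 lower. The secreted antagonist-family gene dkk3a was at 68.9, 107 and 36.2 against 13.5, 9.43 and 9.52 (2.49 ± 0.44, adjusted p = 0.0088; lost without red 2, adjusted p = 0.060). The distal fin gene hoxa13b was at 938, 911 and 553 against 427, 119 and 338 (1.59 ± 0.39, adjusted p = 0.040), while its copy hoxa13a was at 109, 55.4 and 138 against 248, 104 and 138. The hedgehog effector gene gli2a was lower, at 48.2, 27.3 and 33.9 against 71.9, 126 and 103 (-1.44 ± 0.31, adjusted p = 0.022). The call of hoxa13b was lost without red 1, red 2 or female 3 and that of gli2a without red 2 or female 3 (highest adjusted p = 0.16 and 0.11). Of 15 Wnt genes limma called 0 with or without female 2. With all libraries 1 was at an unadjusted p under 0.05, and edgeR and DESeq2 called 0. Without female 2 the values were 2.74 ± 0.72 for and2, 2.56 ± 0.67 for and1, -1.71 ± 0.39 for vcanb, 2.41 ± 0.47 for dkk3a, 1.03 ± 0.25 for hoxa13b and -1.26 ± 0.31 for gli2a.

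Lists of other cell types had few calls in number. Of 9 tested striated muscle genes 1 was called lower, where 1.82% of all genes were, at a median of -1.12. Without female 2, 3 of the 9 were called lower, where 3.16% of all genes were, at a median of -2.18. In both fits the list's share of lower calls was above that of all genes. The creatine kinase gene ckmb was at 0.861, 4.82 and 1.51 against 16.2, 22 and 31.3 (-2.96 ± 0.66, adjusted p = 0.027; lost without red 1, red 3 or female 3, highest adjusted p = 0.098). The fast myosin light chain gene mylpfa was at 3.44, 0 and 3.02 against 44.9, 3.14 and 97.9, and the skeletal actin gene acta1b at 4.3, 4.02 and 1.51 against 44, 3.14 and 150.2. Females 1 and 3 thus held these muscle transcripts and female 2 held 1 read of each, and both genes were called only without female 2 (adjusted p = 0.013 and 0.018). Levels were low in all 6 libraries, and the part of muscle tissue in other differences was not tested. Of 29 immune cell genes limma called 0 (6 at an unadjusted p under 0.05, 0 by edgeR, 3 by DESeq2), and 1 lower, csf3r, without female 2. The lists of epidermis (20 genes), interferon response (14), cell cycle (42) and cholesterol and lipid synthesis (33) also had 0 limma calls, with 2, 2, 3 and 5 genes at an unadjusted p under 0.05. Without female 2, limma called 1 epidermis gene lower (grhl3, -1.30, adjusted p = 0.042; chosen after its value was seen) and none in the other 3 lists. On these 4 lists with all libraries edgeR called 1, 0, 0 and 0 genes and DESeq2 1, 1, 1 and 3. Of 16 blood genes, 1 was called higher (6.25% in either direction against 4.53% of all genes). Without female 2, 2 were called higher and 1 lower, where 7.69% of all genes were called. With all libraries the called gene was the red cell membrane gene gypc, at 77.5, 186 and 155 against 34.1, 12.6 and 33.3 (2.38 ± 0.50, adjusted p = 0.021; lost without red 2, adjusted p = 0.11). Of 10 nerve and glia genes, 0 were called without female 2. With all libraries 1 was called lower (10% in either direction against 4.53% of all genes). This neuronal gene, elavl4, was at 6.89, 20.1 and 16.6 against 42.2, 69.1 and 59.1 (-1.99 ± 0.48, adjusted p = 0.037; not called without red 1, red 2, female 2 or female 3, highest adjusted p = 0.13). Without female 2 the values were -2.97 ± 0.73 for ckmb, 1.92 ± 0.46 for gypc and -1.83 ± 0.52 for elavl4.

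Single libraries stood out in stress-response and clock genes. Of 31 immediate early genes, which cells switch on within minutes of a stimulus, dusp2 was the 1 called (3.23% in either direction against 4.53% of all genes). Without female 2, 2 were called higher and 1 lower, where 7.69% of all genes were called. The list's gene-centred median was 1.36 in red 1 against -1.11 in female 2 and -0.34 to 0.11 in the other 4 libraries. The gene fosb shows the pattern, at 6326, 263 and 191 in red tails and 527, 62.9 and 395 in females, and it was not called (adjusted p = 0.46). Of 25 circadian clock genes, 1 was called (4% in either direction against 4.53% of all genes). This was bhlhe41, a repressor in the clock, higher at 1051, 1158 and 1201 against 79.1, 72.3 and 223 (3.37 ± 0.38, adjusted p = 3.1e-04; 3.08 ± 0.38 without female 2), and it kept its call with every library left out. The list's centred median was 0.93 in female 3 and -0.81 in female 2, against -0.38 to 0.29 elsewhere. The period gene per3 was at 11.2, 41.8 and 19.6 against 30.6, 40.9 and 1114, and per1b at 17.2, 20.1 and 13.6 against 26.1, 34.6 and 530.1. Neither was called (adjusted p = 0.20 and 0.19), and without female 2, 3 clock genes were called lower, where 3.16% of all genes were. The labels give no time of day for the samples.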

How the data were processed

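Per the submitters' processing notes, Trimmomatic, STAR, featureCounts and DESeq2 were used; versions, build and strand setting: not given in the sources used here. Per the values, the signal the authors deposited for each transcript entry is its read count over the library's size factor. In the 12 libraries 100% of nonzero values were whole reads within 0.01. Names were matched by accession to a RefSeq table of assembly NfurGRZ-RIMD1 (14145 of 20788 entries, 68.0%), and no coordinates or sequences are given. Of 15170 tested entries, 8701 had a symbol, and 6 shared one with another tested entry. The 5618 entries with a mean under 10 were not tested; means on either side of the threshold were 9.9959 and 10.002.

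Values were tested as log2(value + 1) with limma 3.58.1 (trend, R 4.3.3), group as the only term, over all 12 libraries, with Benjamini-Hochberg adjustment over the tested entries and a threshold of 0.05. Alternatives used edgeR 4.0.16 (quasi-likelihood) and DESeq2 1.42.0 on recovered reads, and other scalings, filters and pseudocounts. On simulated counts (15070 genes tested) the limma fit recovered 1.49% of 2-fold, 71.6% of 4-fold and 92.4% of 16-fold changes, with 5 false calls. Apart from these changes, the simulated libraries varied independently around a shared mean per gene. No simulated library had an outlying profile as female 2 did, so these rates need not hold for the real libraries. Bounds on low counts cover counting error only, since PCR copies were not told apart.

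The members and the 32 gene lists were chosen with earlier results of these data known. Named genes had a symbol and were the 15 largest called increases and decreases with groups apart, the 10 called genes per direction with the highest mean, called list members (8 with the smallest p for pigment lists, 5 for others) and a fixed set; other list members are given as uncalled examples or for their change without female 2. From the ribosomal list, S6 kinases, rps19bp1 and rpl7l1, which share its name pattern, were left out by name after values had been seen. Lists are described by counts and medians, with no test. An exact permutation test of 3 against 3 cannot go below p = 0.1, so none is given. Results for some named genes are not reported here.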

Additional observations from a re-analysis of the deposited data

How the results depend on the processing

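Against 687 calls (411 higher, 276 lower), DESeq2 made 1757 (879 and 878), array weights 5159 (2652 and 2507; weights 0.109 for female 2 and 6.47 for red 2), and a fit on the 6 MZCS002 libraries 112 (107 and 5). Equal totals gave 646 higher and 134 lower, and no filter on low values gave 182 lower. The other scalings, edgeR, the pseudocounts and a mean of at least 50 stayed within 1.5 times, with 598 calls or more. Leaving out 1 library gave 171 to 1166 calls, 126 to 686 higher and 45 to 480 lower, lowest without red 2 and highest without female 2. Of 109 named called genes, 106 were called by edgeR, 109 by DESeq2, 94 after quantile normalization, 36 on the 6 libraries, 97 without female 2 and 42 without red 2. No called named gene changed sign under any alternative run; the uncalled bco1 ran from -0.11 without female 2, its lowest library, to 1.02 without female 3.

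The replicate numbers were not shown to pair the samples: deviations of same-numbered red and female libraries correlated at 0.09, 0.02 and -0.26. With a replicate block 240 genes were called on 12 libraries (178 higher, 62 lower) and 101 on 6 (95 and 6). Depth limits female 2, where 3 reads equal 9.43 normalized units, and 2-fold changes were rarely recovered in simulation.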

Other observations

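Several large differences lay in genes outside every list. The uncharacterized gene zgc:77375 was at 202, 357 and 269 normalized reads in red tails and at 3.59, 0 and 0.68 in females, and it was called with every library left out (limma adjusted p = 8.1e-05). The gene fam118b was at 6081, 5295 and 6219 against 2843, 509 and 1342, with female 2 lowest, and its log2 change was 2.23 ± 0.48 with that library and 1.58 ± 0.34 without it. The exon junction gene rbm8a was at 5549.8, 5764 and 4133 against 2614, 1857 and 1720.2 (1.33 ± 0.24, limma adjusted p = 0.011). The call of fam118b was lost without red 1, red 2 or female 3 (highest limma adjusted p = 0.084), and that of rbm8a without red 2 (limma adjusted p = 0.068).

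Low-count decreases included the phospholipase gene plce1, at 2.58, 3.21 and 3.77 against 22.5, 47.1 and 51, and the microtubule minus-end gene camsap1a, at 1.72, 3.21 and 1.51 against 8.09, 31.4 and 35.3. The transcription factor gene klf15 was at 3.44, 11.2 and 3.77 against 18.9, 66 and 56.4. The signalling adaptor gene tab2 was at 4.3, 12 and 11.3 against 41.3, 53.4 and 80.2. All 4 had groups apart, limma adjusted p of 0.014 to 0.019, and calls that were lost without red 1 or female 3 (those of plce1 and tab2 also without red 2), with highest adjusted p of 0.051 to 0.078. Of the 687 called genes, 285 carried no symbol and are counted here but not described.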
